A study of Mus musculus with 4 samples.

Results

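Sdc1, Sdc3 and Sdc4 are 3 of the 140 genes of a MERFISH panel measured in sections of newborn mouse brain. They were taken as the panel's columns of those names, and all 3 were found on each of the 4 coverslips. MERFISH reads barcoded RNA molecules in place by imaging, and the values are decoded transcripts per segmented cell. The mice had a one-sided whisker lesion, on the right, at day 4 and were examined at day 5, which is 24 h later. Every coverslip carried 10 µm coronal sections of 1 wild-type and 1 Cx3cl1(-/-) mouse, the knockout lacking the chemokine fractalkine in all its cells; coverslips 1 and 2 were male and coverslips 3 and 4 female. All animals were lesioned on the same side, so each brain holds both a deprived and an intact hemisphere. The files do not say which section is which genotype or which side is which, and no such contrast was analysed. The labelled tissue is barrel cortex, but the sections extend well beyond cortex, and the cells carry no region label.

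Syndecans are transmembrane proteins that carry heparan sulfate chains, through which they bind growth factors, Wnt ligands and matrix at the cell surface. Their short cytoplasmic tails bind PDZ proteins and, through ezrin-type linkers, the actin cytoskeleton. Syndecan-1 is best known from epithelia and plasma cells, syndecan-3 is the main neural syndecan and a receptor for pleiotrophin on axons and neural precursors, and syndecan-4 is a broadly expressed component of focal adhesions that activates protein kinase C alpha. Probes of different genes are not equally efficient in this assay, so levels are compared below between cells for the same gene and never between genes. No probe or protein sequence was used here.

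In all, 794833 of 863580 cells had at least 20 gene counts and were kept. Gene counts totalled 33519204 to 76555311 per coverslip, with a median of 123 to 268 per cell, lowest on coverslip 1 and highest on coverslip 4. Cells were placed in 9 classes by counts of marker genes, which gated 45.4% of them, and the remaining 434020 cells stayed without a class. The classes were astrocytes (89446 cells), microglia (12449), oligodendrocyte precursors or OPCs (46381), inhibitory neurons (93717), excitatory neurons (79096), endothelial cells (31765), mural cells (3753), newly formed oligodendrocytes (2485) and border macrophages (1721). The last 4 names stand for gates on 1 or 2 genes each, among them Cldn5 and Pecam1 for endothelial cells, Pdgfrb for mural cells, and Mrc1 and Lyve1 for border macrophages. Every gating marker was highest in its own class except Sox10, a gating marker of OPCs, which was higher in newly formed oligodendrocytes. This order is in large part set by the gates, which pick cells on the same counts, so it does not test the class names. The panel also holds 40 blank barcodes, which match no probe, and the highest of them in a class is given as its background.

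Over all cells, Sdc1 gave 474848 counts, Sdc3 gave 6776859 and Sdc4 gave 487799. The 3 genes had different homes. Sdc1 was highest in excitatory neurons, Sdc3 in both neuron classes and then OPCs, and Sdc4 in astrocytes and border macrophages. Astrocytes held 50.2% ± 1.43 of the Sdc4 counts of a coverslip (mean ± SD, n = 4), against 4.18% ± 0.490 of the Sdc3 counts and 4.97% ± 0.620 of the Sdc1 counts. Excitatory neurons held 23.7% ± 4.86 of the Sdc1 counts, and both neuron classes together held a large part of the Sdc3 counts, with 18.7% ± 3.33 in excitatory and 18.6% ± 2.67 in inhibitory neurons. Cells outside every gate held 53.6% ± 6.99 of Sdc1, 51.1% ± 6.03 of Sdc3 and 31.1% ± 3.06 of Sdc4 counts.

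**Figure D1:**
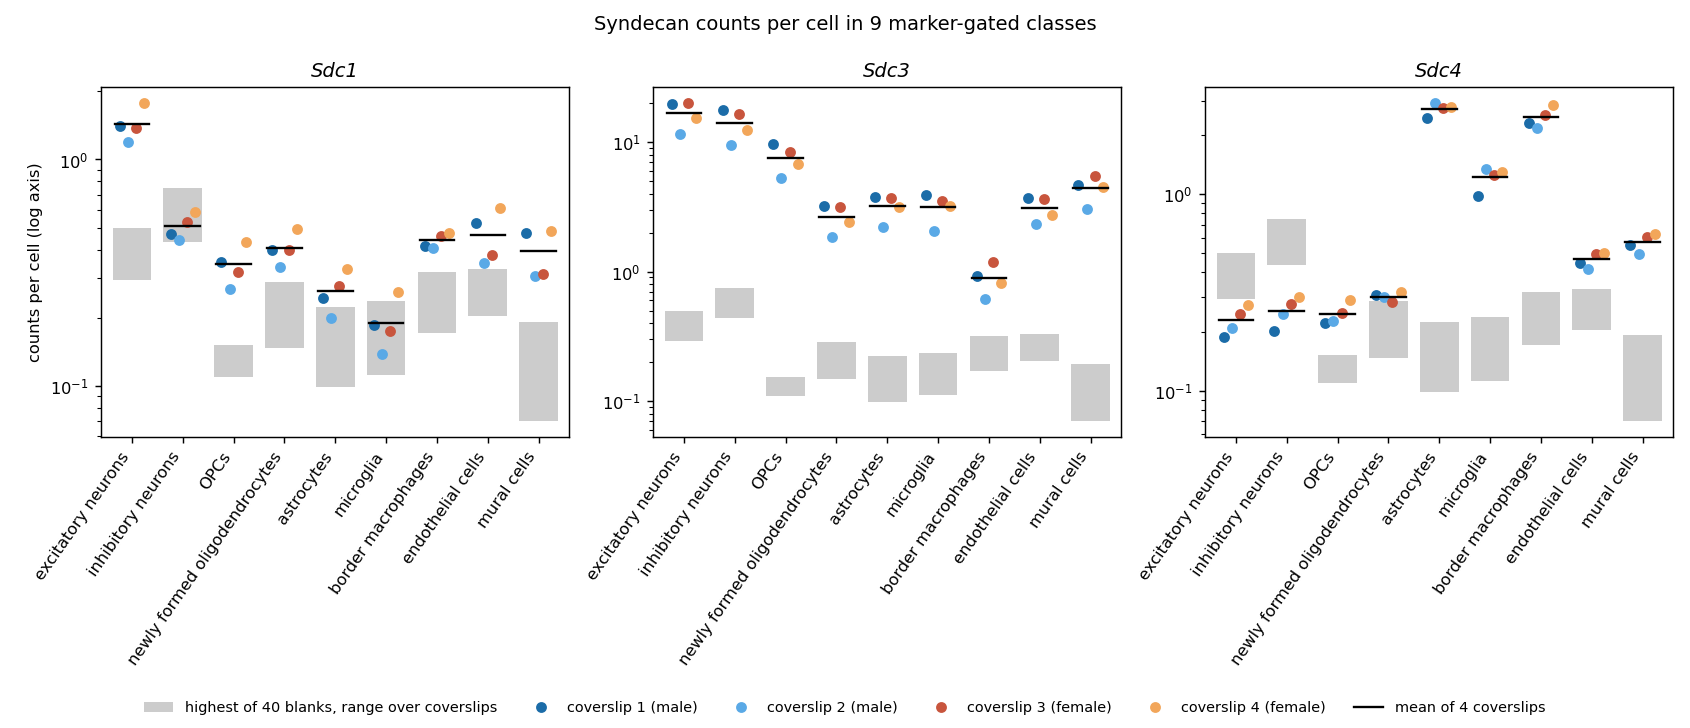
Counts per cell (log axis) of Sdc1, Sdc3 and Sdc4 in the 9 classes, with 1 point per coverslip, the mean as a line and, in grey, the range over coverslips of the highest of 40 blanks. Sdc4 stands at a mean of 2.72 in astrocytes and 2.46 in border macrophages, whereas excitatory and inhibitory neurons lie below the highest blank on 4 of 4 coverslips; Sdc3 lies above the blanks in every class.

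Sdc4, the focal adhesion syndecan, is given first. Astrocytes held 2.44, 2.91, 2.76 and 2.78 Sdc4 counts per cell on coverslips 1 to 4. Border macrophages held 2.30, 2.18, 2.52 and 2.85, within the astrocyte range except on coverslips 1 and 2, where they were lower than every astrocyte value. Microglia held 0.975, 1.35, 1.26 and 1.298 counts per cell, lower than both of these classes on every coverslip and higher than every other class on every coverslip. Below microglia came mural cells at 0.571 ± 0.0583 and endothelial cells at 0.466 ± 0.0417, whose ranges overlap (SD, n = 4). Newly formed oligodendrocytes at 0.302 ± 0.0143, inhibitory neurons at 0.256 ± 0.0418, OPCs at 0.247 ± 0.0318 and excitatory neurons at 0.229 ± 0.0376 overlapped with their neighbours in this order. In excitatory and inhibitory neurons the level lay below the highest blank on 4 of 4 coverslips, with 1 to 4 of the 40 blanks above it. Sdc4 in neurons was therefore not told apart from the brightest blanks at this depth.

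Of single astrocytes, 78.1% ± 2.26 had at least 1 Sdc4 count and 19.97% ± 2.68 had at least 5 (mean ± SD over coverslips). In border macrophages these shares were 74.8% ± 2.47 and 15.1% ± 2.55, and in microglia 48.0% ± 3.99 and 6.30% ± 1.44. In excitatory neurons 19.3% ± 2.57 of cells had a Sdc4 count, although these cells held 268 to 437 gene counts at the median against 165 to 256 in astrocytes. Their Sdc4 level lay below the highest blank, so the part of background in this share was not told apart. Thinned to 50 gene counts per cell, the share with a Sdc4 count was 42.4% ± 6.29 in astrocytes, 41.4% ± 5.04 in border macrophages, 27.04% ± 4.15 in microglia and 3.40% ± 0.290 in excitatory neurons. The thinning left out 810 astrocytes, 54 border macrophages, 1472 microglia and 40 excitatory neurons with fewer counts. The order of these 4 classes was the same with and without thinning.

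Astrocytes were compared with neurons, the sum of both neuron classes, to ask which syndecans separate them. Class differences were fitted with edgeR on counts summed per coverslip and class, per unit of cell volume, and tested against a 2-fold difference; adjusted p-values are Benjamini-Hochberg values over the 110 genes that took no part in gating. A gene was called only if it also lay above every blank in the higher class on every coverslip. Sdc4 was higher in astrocytes by log2 3.63 ± 0.08 (SE, adjusted p = 3.1e-14), and Sdc1 and Sdc3 were lower by log2 -1.70 ± 0.09 (adjusted p = 4.7e-07) and log2 -2.10 ± 0.06 (adjusted p = 1.7e-11). Each difference had the same direction on 4 of 4 coverslips. The pooled neurons were not alike in Sdc1. Excitatory neurons held 1.435 ± 0.243 counts per cell and inhibitory neurons 0.507 ± 0.0645, against 0.263 ± 0.0547 in astrocytes (SD). Per 10000 gene counts the means were 38.5, 13.6 and 11.7. Inhibitory Sdc1 lay above every blank on 1 of 4 coverslips. Since Sdc4 was below the highest blank in neurons, its difference is given as a bound against that blank, on average at least 5.64-fold higher in astrocytes. This bound and the blank bounds below are geometric means over coverslips, so single coverslips can lie below them. Of the 110 genes, 14.5% were called higher and 22.7% lower in astrocytes, and the median difference was log2 -0.69. With TMM factors or library totals in place of volume the difference of Sdc1 did not pass the test (log2 -0.98 and -1.09), while Sdc3 and Sdc4 passed it.

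Astrocytes and microglia are the partners named in the study's title. Of the 3 syndecans, Sdc4 alone passed the test, at log2 1.13 ± 0.05 higher in astrocytes (2.19-fold, adjusted p = 0.0041, 4 of 4 coverslips, from log2 1.07 to 1.27). Sdc1 differed by log2 0.44 ± 0.08 (adjusted p = 1.0), a sign that turned with TMM factors (log2 -0.20). The differences of Sdc3 per cell volume ran from log2 -0.09 to 0.06 on single coverslips. With TMM factors Sdc3 was log2 -0.64 and with library totals -0.42 (adjusted p = 1.0 for both), and against microglia without astrocyte counts it was log2 0.51. Per 10000 gene counts microglia held 267, 158, 212 and 149 Sdc3 counts and astrocytes 189.9, 122, 159 and 111.5, lower on each coverslip. In this comparison 34.5% of genes were called higher in astrocytes and 1.82% lower, and the median difference of all 110 genes was log2 0.67. The Sdc4 difference thus exceeded the median of all genes by log2 0.46. The call depended on scaling and on 1 coverslip: log2 0.49 with TMM factors and 0.71 with library totals (adjusted p = 1.0 for both), and log2 1.08 (adjusted p = 0.058) without male coverslip 1. DESeq2 gave log2 1.13 with adjusted p = 0.095, and the fit without the coverslip block gave log2 1.12 with adjusted p = 0.34.

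The microglial Sdc4 counts were set beside counts of astrocyte markers in the same microglia, since neighbouring cells can share transcripts after segmentation. Slc1a3, Aqp4 and Aldh1l1 reached 5.97% ± 0.522, 6.46% ± 0.629 and 8.42% ± 1.16 of their astrocyte level in microglia, and Sdc4 reached 44.6% ± 3.15 (mean ± SD, n = 4). The low share of the 3 markers is in part set by the gate, which admits to microglia only cells with few astrocyte marker counts, so these values do not measure how many Sdc4 counts are shared. The 2670 microglia with no count of any astrocyte marker held 0.751, 1.09, 0.765 and 0.768 Sdc4 counts per cell, where the highest blank was 0.135 at most. Those cells were shallower, at 92.4 to 109 gene counts per cell against 130 to 214 in all microglia. Astrocytes exceeded them by log2 1.32 ± 0.14 (adjusted p = 0.0065). Microglia within 15 coordinate units of an astrocyte centre held 1.07, 1.09, 1.21 and 1.34 counts per cell, and microglia over 30 units away held 0.906, 1.38, 1.36 and 1.296. The far microglia were lower than the near ones on coverslips 1 and 4 and higher on coverslips 2 and 3.

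Compared with neurons, microglia held more Sdc4 and less of the other syndecans. The difference of Sdc4 was log2 2.50 ± 0.08 (adjusted p = 5.1e-55), at least 2.58-fold against the highest blank in neurons. Sdc1 was lower by log2 -2.14 ± 0.10 and Sdc3 by log2 -2.10 ± 0.07 (adjusted p = 1.1e-25 and 1.2e-45), in a comparison where 32.7% of genes were called lower, 4.55% higher and the median was log2 -1.57. Relative to that median the differences of Sdc1 and Sdc3 were log2 -0.57 and -0.53, and neither passed the test with TMM factors (log2 -0.68 and -0.64) or library totals (log2 -1.10 and -1.07). The difference of Sdc4 passed it under both, at log2 3.96 and 3.53.

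Border macrophages were set against microglia, the resident macrophages inside the tissue. Sdc3 was lower in border macrophages by log2 -1.70 ± 0.13 (adjusted p = 9.2e-09), and Sdc1 was higher by log2 1.37 ± 0.13 (adjusted p = 0.0016), each on 4 of 4 coverslips. Sdc4 was log2 1.15 ± 0.13 higher on average and missed the threshold of the 2-fold test (adjusted p = 0.083); without male coverslip 2 it was log2 1.26 with adjusted p = 0.029. Here 22.7% of genes were called higher and 9.09% lower, and the median was log2 0.61. The call of Sdc1 was lost with TMM factors (log2 0.84), library totals (log2 0.94), the exclusive gate (log2 0.91) and without the block (log2 1.34, adjusted p = 0.10). Sdc3 stood at 0.920, 0.609, 1.19 and 0.823 counts per cell in border macrophages and at 3.88, 2.05, 3.49 and 3.19 in microglia, with no overlap.

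The vessel gates held little Sdc4. Endothelial cells lay below astrocytes by log2 -2.49 ± 0.08 (5.61-fold, adjusted p = 1.7e-41), in a comparison with 23.6% of genes called lower and 11.8% higher. Sdc1 was log2 0.87 ± 0.08 higher in endothelial cells, which the 2-fold test did not call (adjusted p = 1.0), but it passed with TMM factors (log2 1.22) and library totals (log2 1.17). Endothelial Sdc1 was 0.523, 0.349, 0.381 and 0.613 counts per cell, and 1.70% ± 0.731 of endothelial cells had at least 5 counts against 0.246% ± 0.142 of astrocytes. Sdc3 differed between endothelial cells and astrocytes by log2 0.01 ± 0.07.

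**Figure D2:**
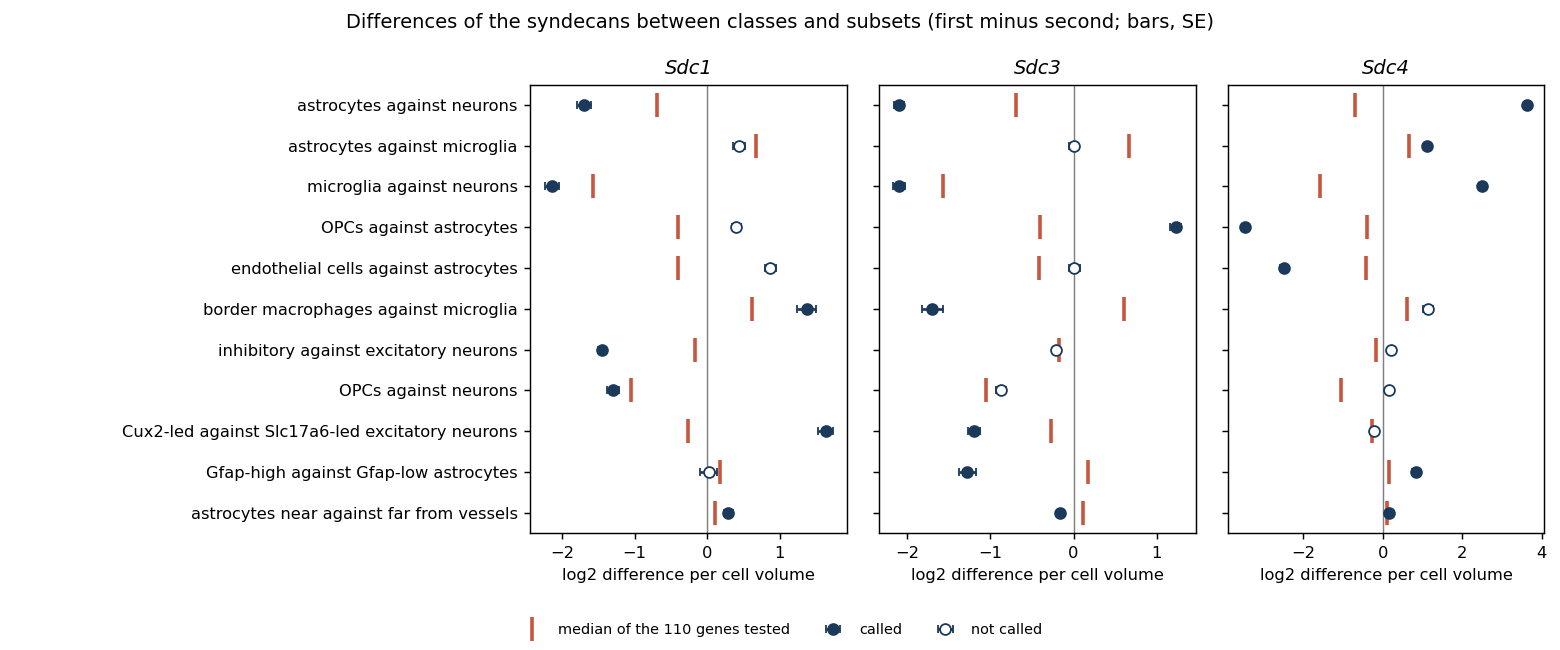
Log2 differences per cell volume of Sdc1, Sdc3 and Sdc4, first class minus second, with SE from edgeR. Filled points were called, open points were not, and the red vertical marks are the median of the 110 genes tested. The comparisons by Gfap and by distance from vessels were tested against no difference, and the others against a 2-fold difference. Sdc4 lies at log2 3.63 in astrocytes against neurons and at log2 -3.46 in OPCs against astrocytes; Sdc3 lies at log2 -2.10 and 1.23 in the same comparisons.

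Sdc3, the neural syndecan, had its highest levels in neurons on every coverslip. Excitatory neurons held 19.9, 11.7, 19.96 and 15.3 Sdc3 counts per cell and inhibitory neurons 17.7, 9.43, 16.5 and 12.4. OPCs followed at 9.66, 5.28, 8.45 and 6.80 and mural cells at 4.62, 3.02, 5.51 and 4.47. Coverslip 2 was the lowest of the 4 in each of these classes. The order of these 4 classes was the same on all 4 coverslips, although their ranges overlap because the coverslips differ. Astrocytes (3.22 ± 0.726), microglia (3.15 ± 0.785) and endothelial cells (3.09 ± 0.676) could not be ranked, and newly formed oligodendrocytes held 2.65 ± 0.644 (SD, n = 4). Border macrophages at 0.886 ± 0.242 were the lowest class, with no overlap with any other.

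At least 1 Sdc3 count was found in 99.4% ± 0.465 of excitatory neurons, 97.5% ± 1.03 of inhibitory neurons, 95.4% ± 1.91 of OPCs and 74.9% ± 6.11 of astrocytes. At least 5 counts were found in 87.9% ± 6.96, 81.1% ± 7.48, 61.0% ± 11.9 and 22.9% ± 6.0 of them. At a fixed 50 gene counts per cell the first shares became 83.4% ± 7.11, 77.0% ± 8.79, 88.2% ± 6.51 and 42.3% ± 6.16, so that OPCs stood above both neuron classes. OPCs are shallow cells, with 105 to 159 gene counts at the median against 268 to 437 in excitatory neurons.

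The step from OPCs to astrocytes separated the syndecans in opposite directions. Sdc3 was higher in OPCs by log2 1.23 ± 0.07 (adjusted p = 0.0028) and Sdc4 lower by log2 -3.46 ± 0.08 (adjusted p = 2.0e-10), each on 4 of 4 coverslips. Only 1.82% of the genes tested were called higher in OPCs, and 22.7% were called lower, with a median of log2 -0.40. Without the coverslip block Sdc3 was log2 1.24 with adjusted p = 0.31, and the difference of Sdc4 still passed. Sdc1 was log2 0.40 ± 0.06 higher in OPCs (adjusted p = 1.0). Among OPCs 78.7% ± 3.22 had Sdc3 without Sdc4, and among astrocytes 59.2% ± 3.57 had both (mean ± SD).

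Whether OPCs or neurons hold more Sdc3 depended on the scale, in a comparison chosen after the levels were seen. Per cell volume Sdc3 was lower in OPCs by log2 -0.87 ± 0.06 (adjusted p = 1.0), while the median of all genes was log2 -1.05. With TMM factors it was higher by log2 0.25 and with library totals by log2 0.32, neither passing the test. As a share of gene counts OPCs held 702, 431, 579 and 361 Sdc3 counts per 10000, more than excitatory neurons with 620, 382, 499 and 318 on each coverslip. Sdc1 was lower in OPCs than in neurons by log2 -1.3 ± 0.08 (adjusted p = 8.5e-05) where 22.7% of genes were called lower and 2.73% higher, and this call was lost with TMM factors (log2 -0.18), library totals (log2 -0.10) and without the block (log2 -1.28, adjusted p = 0.11).

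Sdc1 was highest in excitatory neurons on every coverslip, with 1.41, 1.19, 1.37 and 1.77 counts per cell. Inhibitory neurons held 0.471, 0.440, 0.530 and 0.586, with no overlap with the excitatory range, and lay below 1 of the 40 blanks on 3 of 4 coverslips. The other 7 classes held between 0.190 and 0.466 counts per cell on average, and each overlapped with its neighbour in the order. Microglia were the lowest at 0.190 ± 0.0511, followed by astrocytes at 0.263 ± 0.0547 (SD, n = 4); microglia were below astrocytes on 4 of 4 coverslips. At least 1 Sdc1 count was found in 61.8% ± 3.30 of excitatory and 32.5% ± 1.72 of inhibitory neurons, and after thinning to 50 gene counts in 19.6% ± 2.16 and 7.05% ± 0.635.

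The difference of Sdc1 between inhibitory and excitatory neurons was log2 -1.45 ± 0.05 (adjusted p = 8.3e-05, 4 of 4 coverslips). Against the higher of the inhibitory level and the highest blank there, excitatory neurons were at least 2.02-fold higher. Sdc3 differed by log2 -0.21 ± 0.04 and Sdc4 by log2 0.21 ± 0.04, both with adjusted p = 1.0. Few genes separated the neuron classes by 2-fold: 5.45% of those tested were called lower and 0.909% higher in inhibitory neurons. The call of Sdc1 held with TMM factors and library totals (log2 -1.24 and -1.50), and without the block its adjusted p was 0.10. The difference was not the same across the section: within 200 coordinate units of the edge excitatory neurons held 2.12 ± 0.321 and inhibitory neurons 0.515 ± 0.0542 Sdc1 counts per cell, but at 1200 to 2000 units 0.522 ± 0.1345 and 0.572 ± 0.0867 (SD, n = 4). Beyond 2000 units excitatory neurons held 0.675, 0.548, 0.767 and 1.07 and inhibitory neurons 0.845, 0.807, 1.19 and 1.47, the higher class there on all 4 coverslips. Over each whole class the highest blank was 0.293 to 0.500 in excitatory and 0.435 to 0.750 in inhibitory neurons, and blanks were not counted by band. The values of both classes at 1200 to 2000 units thus lie near the highest blank.

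Excitatory neurons were further split by their leading marker: Cux2, a gene of upper cortical layers, Rorb, a gene of the cortical layer that receives thalamic input, Syt6, a gene of deep-layer neurons, or Slc17a6, the vesicular glutamate transporter used outside much of the cortex. Sdc1 was lower at each step of this list on all 4 coverslips. Cux2-led cells (30334) held 1.96, 1.49, 1.91 and 2.28 Sdc1 counts per cell, Rorb-led cells (18339) held 1.55, 1.28, 1.68 and 2.09, and Syt6-led cells (8928) held 1.36, 0.901, 0.986 and 1.56. Slc17a6-led cells (20064) held 0.551, 0.587, 0.705 and 0.883, the lowest on each coverslip, and lay below the highest blank on 2 of them. Sdc3 ran the other way, with 37.9, 22.6, 33.3 and 25.9 counts per cell in Slc17a6-led cells against 13.2, 8.76, 13.97 and 11.3 in Cux2-led cells. Rorb-led cells (12.4 ± 2.88) and Syt6-led cells (11.5 ± 2.48) lay close to the Cux2-led cells (11.8 ± 2.33).

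A comparison of Cux2-led with Slc17a6-led neurons, chosen after these levels were seen, gave log2 1.63 ± 0.10 for Sdc1 (adjusted p = 0.0005) and log2 -1.20 ± 0.07 for Sdc3 (adjusted p = 0.020). With the blank bound Sdc1 was at least 2.58-fold higher in Cux2-led cells. Of the genes tested 2.73% were called higher and 10.0% lower, with a median of log2 -0.27. The call of Sdc1 was kept under TMM factors (log2 1.89), library totals (log2 2.33) and without the block (log2 1.62). That of Sdc3 was lost under each of them (log2 -0.94, -0.50 and -1.22) and without female coverslip 3 (log2 -1.19, adjusted p = 0.078). Slc17a6-led cells held 468 to 675 gene counts per cell against 254 to 396 in Cux2-led cells. Among inhibitory neurons, those with at least 10 Sst counts, those with at least 8 Bcl11b counts and the rest held 14.3 ± 3.10, 13.4 ± 3.05 and 14.1 ± 4.22 Sdc3 counts per cell, which could not be ranked.

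**Figure D3:**
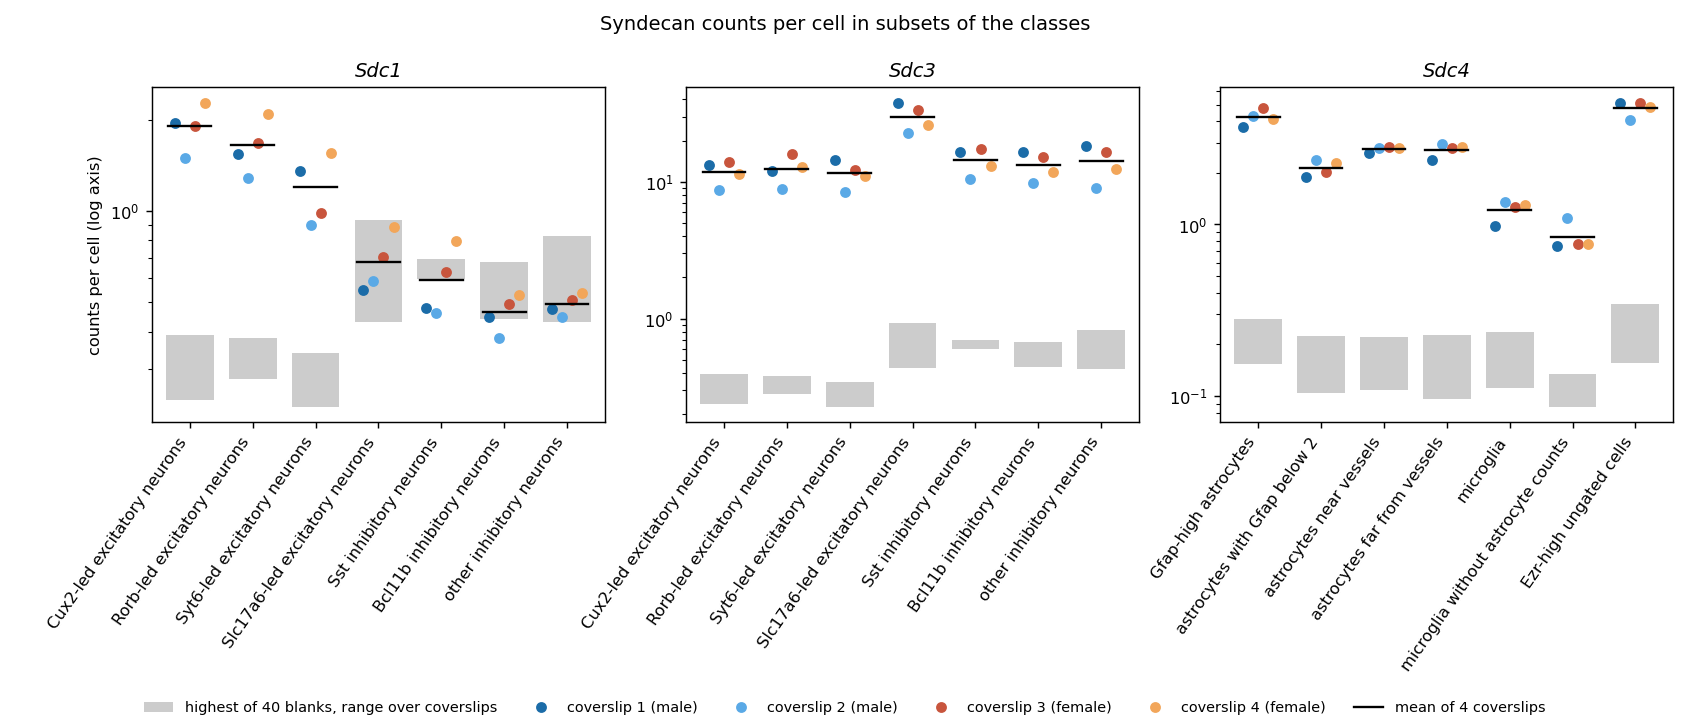
Counts per cell (log axis) of Sdc1 and Sdc3 in subsets of neurons and of Sdc4 in subsets of astrocytes and microglia and in ungated cells with many Ezr counts, drawn as in the plot of the 9 classes. Sdc1 has its highest mean, 1.91, in Cux2-led cells and Sdc3 its highest, 29.9, in Slc17a6-led cells; Sdc4 lies at 4.22 in Gfap-high and 2.14 in Gfap-low astrocytes.

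Within astrocytes, Sdc4 and Sdc3 moved in opposite directions with Gfap, the intermediate filament gene of reactive and fibrous astrocytes. The 15539 astrocytes with at least 20 Gfap counts held 3.70, 4.27, 4.802 and 4.11 Sdc4 counts per cell, and the 29642 with fewer than 2 held 1.90, 2.36, 2.03 and 2.27. Sdc3 was 1.97, 1.29, 2.56 and 2.22 in the first and 5.24, 3.17, 5.14 and 4.23 in the second, so neither gene overlapped between the subsets. Per cell volume, and tested with edgeR against no difference, Sdc4 was higher by log2 0.85 ± 0.10 (adjusted p = 1.3e-15) and Sdc3 lower by log2 -1.28 ± 0.10 (adjusted p = 2.5e-30) in Gfap-high cells. Sdc1 differed by log2 0.02 ± 0.12 (adjusted p = 0.89) and was lower by log2 -0.41 with library totals (adjusted p = 0.002). This comparison, chosen after the levels were seen, called 31.8% of genes higher and 20.9% lower. The calls of Sdc3 and Sdc4 were kept under TMM factors (log2 -1.44 and 0.70) and library totals (log2 -1.71 and 0.43). Gfap is itself a gating marker, and Gfap-high cells held 235 to 367 gene counts per cell against 169 to 261.

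Astrocytes within 20 coordinate units of an endothelial centre (14658) were compared with those over 40 units away (48475), tested against no difference. Per cell volume Sdc1 was higher near vessels by log2 0.29 ± 0.06 (adjusted p = 1.1e-05) and Sdc3 lower by log2 -0.16 ± 0.03 (adjusted p = 6.1e-06). Sdc4 was higher by log2 0.17 ± 0.03 (adjusted p = 2.0e-06), but in counts per cell it was 2.61, 2.80, 2.82 and 2.79 near and 2.37, 2.96, 2.78 and 2.82 far, with higher values near on coverslips 1 and 3 alone. The near cells were smaller, at a mean volume of 800.2 against 893 units. With TMM factors the difference of Sdc4 was log2 0.02 and with library totals log2 -0.03, neither called, whereas Sdc3 stayed lower under both (log2 -0.31 and -0.37). Without the coverslip block none of the 3 was called (adjusted p = 0.90, 1.0 and 0.99 for Sdc1, Sdc3 and Sdc4). Of all genes tested 39.1% were called higher and 16.4% lower near vessels, and the median was log2 0.11. Sdc1 was called with TMM factors (log2 0.14) and not with library totals (log2 0.09); endothelial cells themselves held 178% ± 31.5 of the astrocyte Sdc1 level per cell (SD, n = 4), and the part of their transcripts in the near astrocytes was not tested.

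Position in the section separated the 3 genes further. Distance was measured from the outer edge of each section in the coordinate units of the files. Excitatory neurons within 200 units of the edge held 2.12 ± 0.321 Sdc1 counts per cell, those at 200 to 600 units 1.61 ± 0.306, those at 600 to 1200 units 1.24 ± 0.303, and those at 1200 to 2000 units 0.522 ± 0.135 (SD, n = 4). This order held on each of the 4 coverslips, and beyond 2000 units the level was 0.764 ± 0.221. The value at 1200 to 2000 units lies near the highest blank of the class. Excitatory Sdc3 was 12.6 ± 2.21 within 200 units and 27.1 ± 10.7 at 1200 to 2000 units, and the inner value was the higher on every coverslip. In inhibitory neurons Sdc3 was 11.9 ± 1.94 and 13.7 ± 4.8 in the same bands, the inner value being higher on 3 of 4 coverslips. Inhibitory Sdc1 was higher beyond 2000 units (1.08 ± 0.314) than within 200 units on every coverslip. Excitatory neurons with fewer than 5 Slc17a6 counts held 11.4 ± 2.30, 10.8 ± 2.61 and 12.3 ± 2.52 Sdc3 counts per cell in the 3 outer bands, and 2.08 ± 0.339, 1.63 ± 0.297 and 1.48 ± 0.313 Sdc1 counts. Deeper in the section as few as 33 such cells were found on a coverslip. Over all kept cells the mean of Sdc4 was lowest at 200 to 600 units (0.405 ± 0.101) and highest at 1200 to 2000 units (0.921 ± 0.0718). On coverslip 4 the lowest band was the one within 200 units, at 0.525 against 0.535 at 200 to 600 units. In astrocytes alone the bands at 200 to 600 and 1200 to 2000 units held 2.69 ± 0.463 and 2.89 ± 0.1498 counts per cell. The regions under these bands were not identified, and the make-up of cells differs between them.

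**Figure D4:**
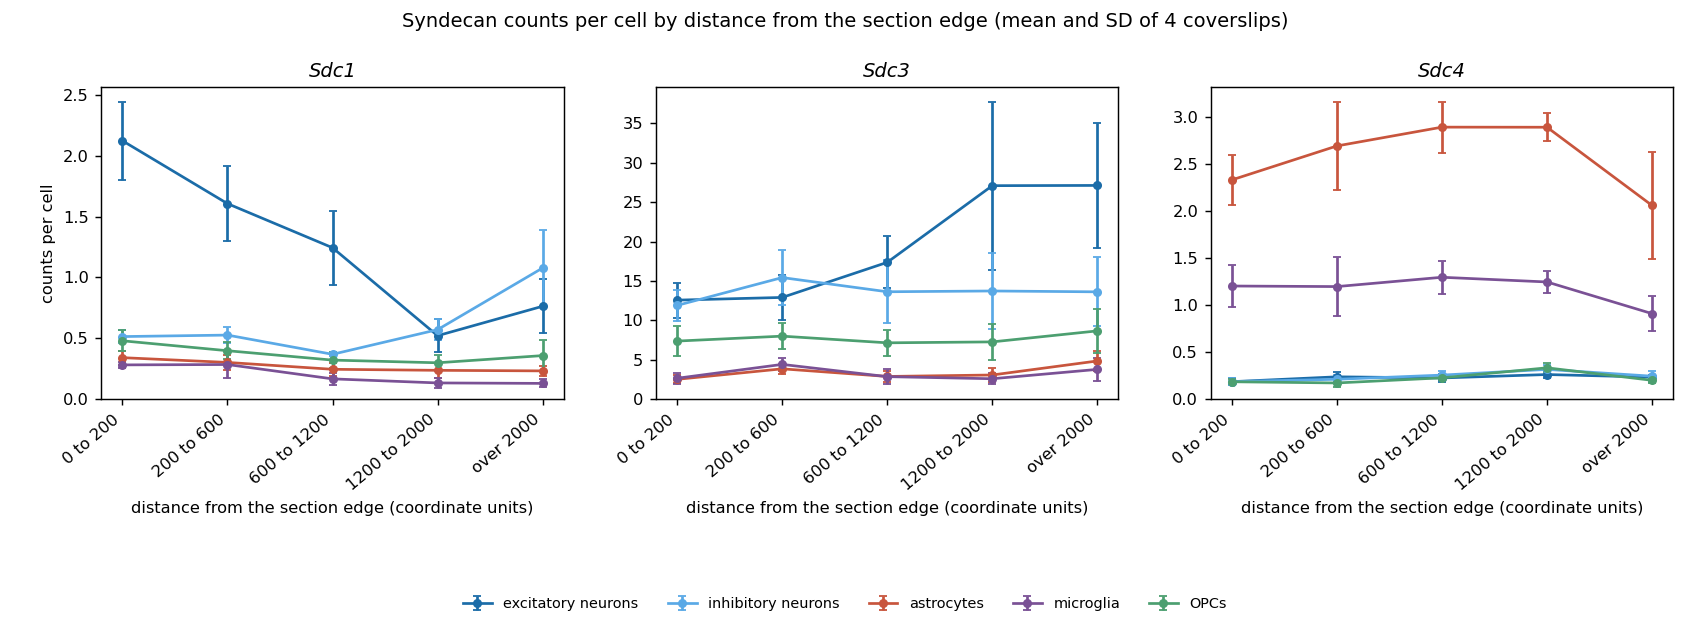
Counts per cell by distance from the section edge in the coordinate units of the files, for 5 classes; points are the mean and bars the SD of 4 coverslips. Sdc1 in excitatory neurons goes from 2.12 at the edge to 0.522 at 1200 to 2000 units, and Sdc3 in the same class from 12.6 to 27.1.

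The spread over squares of side 200 was wide for each syndecan. The tenth of squares with the highest level held 28.2% to 33.6% of the Sdc1 counts of a section, 17.3% to 24.4% of the Sdc3 counts and 21.7% to 33.2% of the Sdc4 counts, over 8 sections. As a description over squares, which share sections and depth, Spearman's rho of Sdc1 with Sdc4 ran from -0.47 to 0.11 and that of Sdc3 with Sdc4 from -0.36 to 0.20.

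**Figure D5:**
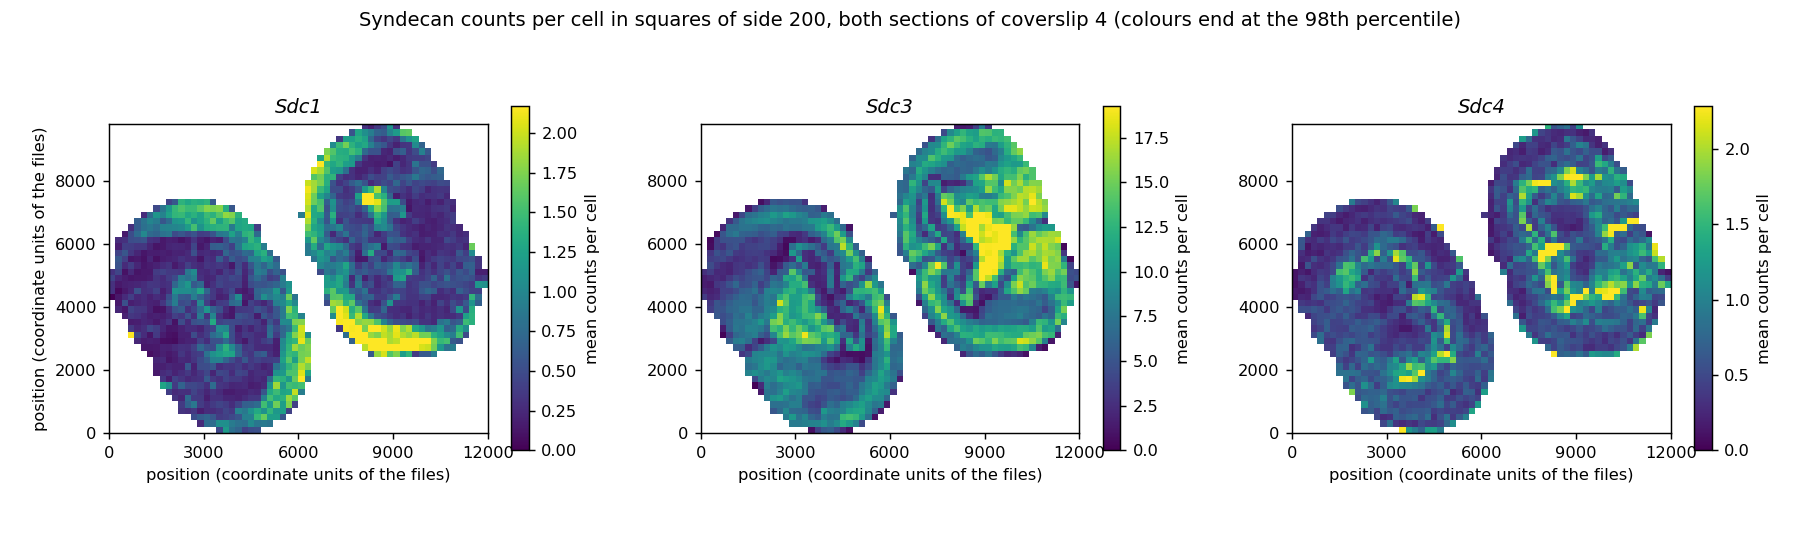
Mean counts per cell of Sdc1, Sdc3 and Sdc4 in squares of side 200 over both sections of coverslip 4, with axes in the coordinate units of the files and a colour scale for each gene. Sdc1 is high in a band along part of the outer rim, Sdc3 in an inner field and a thin outer band, and Sdc4 along narrow curved lines and spots inside the sections. Colours end at the 98th percentile of the squares.

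The other heparan sulfate proteoglycan cores measured outside the gates were Sdc2 and the GPI-anchored glypicans Gpc1 to Gpc6. In astrocytes against neurons, where 14.5% of all genes tested were called higher and 22.7% lower, 0 of these 7 were called higher and 1 lower, Gpc1 at log2 -2.15 ± 0.06; their median was log2 -0.66, beside log2 -0.69 for all genes tested. In astrocytes against microglia, with 34.5% of all genes called higher, 4 of 7 were higher and 0 lower, namely Sdc2 (log2 1.27), Gpc4 (log2 1.96), Gpc5 (log2 2.69) and Gpc6 (log2 1.78), with a median of log2 1.27 against 0.67 for all genes tested. Above that median of all genes they lay by log2 0.60, 1.29, 2.02 and 1.11. In OPCs against astrocytes 1 of 7 was lower, Gpc4 at log2 -2.04, beside 22.7% of all genes. In endothelial cells against astrocytes 4 were lower (Gpc1, Gpc4, Gpc5 and Gpc6), beside 23.6% of all genes, and 1, Gpc3, was higher at log2 1.31, beside 11.8%. Sdc2, the remaining syndecan of the family, had the highest mean of the 9 classes in mural cells, at 1.54, 2.16, 2.25 and 3.18 counts per cell. Slc17a6-led neurons held 2.13, 2.196, 1.98 and 2.81, above mural cells on coverslips 1 and 2. Like Sdc3 and unlike Sdc1 it was lower in Cux2-led than in Slc17a6-led neurons (log2 -1.96 ± 0.08, adjusted p = 3.4e-05).

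Of proteins that link membrane proteins to the cytoskeleton, the panel holds ezrin (Ezr) and its scaffold NHERF1 (Slc9a3r1). Both were called higher in astrocytes than in neurons, at log2 2.86 ± 0.08 and 3.40 ± 0.06, and than in microglia, at log2 2.37 ± 0.05 and 2.15 ± 0.05 (adjusted p from 1.3e-12 to 1.6e-18 for Ezr). Both were lower in OPCs (log2 -3.17 and -3.13) and endothelial cells (log2 -1.82 and -1.69) than in astrocytes, as Sdc4 was. In microglia against neurons Slc9a3r1 was called higher at log2 1.25 and Ezr was not, at log2 0.48. Near vessels both were lower in astrocytes (log2 -0.09 each, adjusted p = 0.025 for Ezr and 0.016 for Slc9a3r1).

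For each syndecan the 5 panel genes with the most similar profile over the 9 classes were listed, by Pearson's r of log2 counts per cell volume among 123 genes above every blank in at least 1 class. These values describe 9 points that share coverslips, depth and cell volume. Sdc4 was closest to Apoe, the lipid carrier gene of glia (r = 0.979), then Gfap (0.858, a gating marker), Slc9a3r1 (0.837), the Wnt receptor gene Fzd7 (0.835) and Ezr (0.825). Sdc3 was closest to the kinase gene Prkce (0.925), Cx3cl1 (0.915, a mean over wild-type and knockout sections), the kinase gene Gsk3b (0.874), the noncoding RNA Meg3 (0.874) and Apc (0.868). Sdc1 was closest to the proteasome gene Psmb4 (0.855), the membrane protein gene Reck (0.825), the retinoic acid receptor gene Rara (0.798), Ep300 (0.770) and the Wnt co-receptor gene Ryk (0.760). Between members r was -0.753 for Sdc3 with Sdc4, -0.491 for Sdc1 with Sdc4 and 0.428 for Sdc1 with Sdc3.

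The sexes were compared on the sums over all cells of a coverslip, 2 against 2, with edgeR, TMM factors and a test against no difference. Sdc1 differed by log2 -0.13 ± 0.17, Sdc3 by log2 -0.18 ± 0.21 and Sdc4 by log2 -0.26 ± 0.17 (female minus male, adjusted p = 0.84, 0.80 and 0.59), and all 3 signs turned with volume offsets (log2 0.29, 0.17 and 0.16). Of the 3, 0 passed at an unadjusted p of 0.05. Of the 140 genes 1.43% were called higher and 0.714% lower. Per 10000 gene counts Sdc4 was 25.1 and 21.8 on the female and 27.05 and 30.9 on the male coverslips, and Sdc1 was 24.05 and 23.1 against 28.15 and 25.2. Sdc3 was 429 and 263 against 498 and 311. An exact permutation test of 2 against 2 cannot give a p below 0.333, and the sexes also differed in depth. The class differences were tested for an interaction with sex in 7 comparisons, and no syndecan passed (lowest adjusted p = 0.19, Sdc4 in astrocytes against neurons, log2 -0.31 ± 0.12, female minus male).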

How the data were processed

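For each segmented cell the authors deposited raw counts of 140 genes and 40 blank barcodes, which are whole numbers without normalization; the authors' decoding and segmentation software is not given in the sources used here. Cell volume and centre, other measures that the authors deposited, carry no unit. Cells with at least 20 gene counts were kept. A cell entered a class when its summed marker counts reached a minimum, from at least 2 different markers (1 for mural cells), and scored 2-fold above every unrelated class. Minimums were 4 to 15 counts. Microglia and border macrophages were not held to the 2-fold rule against each other, nor were OPCs and newly formed oligodendrocytes. Border macrophages needed at least 2 counts each of Lyve1 and Mrc1. Microglia needed fewer than 2 Lyve1 counts, with no limit on Mrc1. The gating genes of newly formed oligodendrocytes are not reported here. The members, gene lists and comparisons were chosen with earlier results of these data known, and the gates after marker counts were seen.

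Counts were summed per coverslip and class (n = 4), so that every value joins both genotypes. With the block, p-values measure how a difference varies from coverslip to coverslip, and not how the levels vary between coverslips. The model draws this spread largely from all genes. edgeR 4.0.16 (R 4.3.3) fitted quasi-likelihood models with coverslip as a block, because the classes of a coverslip come from the same animals, and with summed volume as offset. Class comparisons used glmTreat against 2-fold; comparisons within a class used glmQLFTest. The fit across 110 genes, tested on simulated data, recovered 30 of 30 changed genes with 0 false calls for astrocytes against microglia, and 30 of 30 with 3 false calls for near against far from vessels. The changes simulated between classes lay well beyond 2-fold. The spread was set small in advance, both groups shared the coverslip effect, and every gene passed the blank rule. The simulation therefore checks only that the fit runs, and it cannot judge calls near a threshold. Alternatives were TMM factors, library totals, DESeq2 1.42.0, no block, stricter and exclusive gates, low-signal squares left out, cells with at least 50 counts, a gene filter and each coverslip left out. Genes were named by rule: the members in every class, the panel's proteoglycan cores and linker genes, and for each member the 5 genes of most similar class profile. Sections were separated by position; 1880 kept cells lay outside both sections of their coverslip.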

Additional observations from a re-analysis of the deposited data

How the results depend on the processing

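Of 447 alternative values of the members' differences, 387 kept their direction and their side of the test, 29 lost a call, 11 gained one and 20 changed direction; the cause was not tested unless the setting's own construction shows it. With TMM factors and with library totals, in this order, the values that lost or gained a call or turned were, for Sdc1, log2 -0.98 and -1.09 in astrocytes against neurons, -0.68 and -1.10 in microglia against neurons, 1.22 and 1.17 in endothelial cells against astrocytes, 0.84 and 0.94 in border macrophages against microglia, -0.18 and -0.10 in OPCs against neurons, and -0.14 and -0.41 in Gfap-high against Gfap-low astrocytes. With TMM factors alone Sdc1 turned to log2 -0.20 in astrocytes against microglia, and with library totals alone it was log2 0.09 near vessels. For Sdc3 they were log2 -0.64 and -1.07 in microglia against neurons, 0.25 and 0.32 in OPCs against neurons, and -0.94 and -0.50 in Cux2-led against Slc17a6-led neurons. For Sdc4 they were log2 0.49 and 0.71 in astrocytes against microglia, 1.29 and 1.36 in OPCs against neurons, 0.04 and 0.48 in Cux2-led against Slc17a6-led neurons, and 0.02 and -0.03 near vessels. In neurons, and in their Cux2-led and Slc17a6-led subsets, Sdc4 lay below the highest blank on 4 of 4 coverslips. The Sdc4 values of OPCs against neurons and of Cux2-led against Slc17a6-led neurons are therefore not read as differences. With volume offsets the sex differences turned to log2 0.29, 0.17 and 0.16 for Sdc1, Sdc3 and Sdc4.

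Without the replicate block, which leaves the depth of the coverslips in the spread, calls were lost for Sdc4 in astrocytes against microglia (log2 1.12), Sdc3 in OPCs against astrocytes (1.24), Sdc1 in border macrophages against microglia (1.34), inhibitory against excitatory neurons (-1.45) and OPCs against neurons (-1.28), Sdc3 in Cux2-led against Slc17a6-led neurons (-1.22), and Sdc1, Sdc3 and Sdc4 near vessels (0.29, -0.16 and 0.17). Against no difference instead of 2-fold, the same values passed for Sdc1 in astrocytes against microglia (0.44), OPCs against astrocytes (0.40) and endothelial cells against astrocytes (0.87), for Sdc3 in inhibitory against excitatory neurons (-0.21) and OPCs against neurons (-0.87), and for Sdc4 in border macrophages against microglia (1.15). How many of all genes passed under this setting is not reported here, so these calls are not read as particular to the syndecans. DESeq2 gave log2 1.13 for Sdc4 in astrocytes against microglia, not called. The stricter gate gave log2 0.05 for Sdc3 in inhibitory against excitatory neurons and -0.06 for Sdc4 in OPCs against neurons, which the exclusive gate put at -0.22; the exclusive gate gave 0.91 for Sdc1 in border macrophages. Leaving out low-signal squares gave log2 -0.01 for Sdc3 in endothelial cells against astrocytes. The stricter gate moved Sdc1 in excitatory neurons to 1.71 and Sdc4 in astrocytes to 3.37 counts per cell. Leaving out each coverslip in turn gave log2 1.08 to 1.15 for Sdc4 in astrocytes against microglia, where male replicate 1 decided the call, 1.08 to 1.26 for Sdc4 in border macrophages against microglia, called without male replicate 2, and -1.25 to -1.13 for Sdc3 in Cux2-led against Slc17a6-led neurons, not called without female replicate 1. Sdc3 in endothelial cells against astrocytes turned without male replicate 2 (log2 -0.03) and female replicate 1 (-0.02) in a range up to 0.06. Sdc1 by Gfap turned without female replicate 1 (-0.02, in a range up to 0.07). Sdc3 by sex ran from log2 -0.55 to 0.17 and was positive without male replicate 1 (0.17) and female replicate 2 (0.11).

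Scaling also moved how many genes were called. With volume, TMM factors and library totals, the calls higher made up 39%, 81.1% and 75.0% in astrocytes against neurons, 95%, 75.0% and 82.4% in astrocytes against microglia, 12.2%, 78.9% and 65% in microglia against neurons, 7.41%, 16.7% and 22.7% in OPCs against astrocytes, 33.3%, 45.9% and 44.7% in endothelial cells against astrocytes, 71.4%, 58.1% and 63.3% in border macrophages against microglia, 10.7%, 83.3% and 85.7% in OPCs against neurons, 21.4%, 35.7% and 61.1% in Cux2-led against Slc17a6-led neurons, 60.3%, 46.2% and 25.4% by Gfap, and 70.5%, 41.7% and 28.8% near vessels. In all, 67 of 298 alternative counts of called genes moved by over 1.5 times; without the block near vessels, 43 genes higher and 18 lower became 8 and 0.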

Other observations

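Cells outside every gate included 4944 with at least 10 Ezr counts, picked after their values were seen and given no cell type name. They held 5.14, 4.05, 5.08 and 4.87 Sdc4 counts per cell on coverslips 1 to 4, and 4.92% ± 1.05 of all Sdc4 counts (mean ± SD, n = 4), while making up 0.615% ± 0.103 of kept cells. Their Sdc1 level of 1.02 ± 0.212 counts per cell lay above that of every class but excitatory neurons, and their Sdc3 level of 0.538 ± 0.227 lay below that of every class. Their depth, 155 to 249.6 gene counts per cell, was near that of endothelial cells (139 to 217).

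The sections of a coverslip, told apart by position and not assigned to a genotype, differed in Sdc4. The astrocytes of one section and the other held 2.31 and 2.56 counts per cell on coverslip 1, 2.19 and 3.45 on coverslip 2, 1.64 and 3.82 on coverslip 3, and 2.27 and 3.26 on coverslip 4. Microglia held 0.869 and 1.06, 0.859 and 1.68, 0.738 and 1.77, and 1.00 and 1.59 in the same order. Depth moved with these values: the median gene counts of astrocytes were 176 and 185, 161 and 169, 175 and 244, and 221 and 302. Kept cells in squares of low signal (side 200, at least 20% of cells under 20 gene counts) made up 9.34% and 3.45%, 8.09% and 0.211%, 5.23% and 0.159%, and 0.332% and 0.0612% of these sections. Sdc3 in astrocytes was 3.898 and 3.698, 2.74 and 1.82, 4.18 and 3.31, and 2.675 and 3.64 counts per cell, lower in the second section on coverslips 1 to 3. Per 10000 gene counts the astrocyte levels of Sdc4 were 118 and 126, 123 and 188, 83.0 and 143, and 94.3 and 100.3. Gfap in astrocytes was 11.5 and 10.9, 10.1 and 12.9, 9.27 and 13.9, and 12.6 and 15.8 counts per cell. The sections of a coverslip are from 1 wild-type and 1 Cx3cl1(-/-) mouse, so within a coverslip animal and genotype differ together with section. The sections were not assigned to a genotype here, so genotype was not compared over the 4 coverslips either. The part of animal, of genotype, of depth, of low signal, of Gfap-high astrocytes or of the level of the cut in these differences was not tested.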
